A study of Mus musculus with 2 samples.

Results

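The integrated stress response genes followed here are *Atf4*, *Atf5*, *Ddit3*, *Trib3*, *Chac1*, *Asns*, *Sesn2* and *Slc7a11*. The choice was a list of gene names, drawn up with earlier results of these data known, and all 8 had a column among the 20198 genes of the deposited table of single-cell counts. Their counts were read in 28867 mouse corneal cells from 2 droplet libraries. The UW library held cells of 4 unwounded mice. The W library held cells of 4 mice taken 24 h after the central corneal epithelium had been scraped off inside a ring of 2.5 mm. Each library pooled 8 corneas, and cells were not split by animal here. The mice were males of 6 to 8 weeks with no stated genetic change, and their strain is not given in the sources used here. All corneas spent 18 h in dispase at 4 °C, after which the epithelium was treated with trypsin and the remaining tissue with collagenase at 37 °C for 1 h.

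With 1 library per condition, differences of W from UW could not be set against a spread between replicates, and no test across cells was made. The UMIs of a gene (unique molecular identifiers, each marking 1 captured RNA molecule) were summed over the cells of a cluster in a library and are given as CPM, counts per 1000000 UMIs of that sum. Ranges in parentheses are exact Poisson 95% intervals for CPM, exact binomial 95% intervals for log2 ratios of W over UW, and exact Clopper-Pearson 95% intervals for shares of cells. All of them cover counting error only. A gene was compared in a cluster where the mean of both libraries reached 10 CPM with at least 20 counts, and was called higher or lower where the log2 ratio was at least 1 in size. Over all genes, 7.18% of the 65689 pairs of gene and epithelial cluster compared were called higher by this limit and 8.53% lower, and 3.73% and 4.38% of genes in stromal cluster 0.

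UW contributed 16450 cells with a median of 22014 UMIs and W 12417 cells with a median of 20290, fewer cells than the study states, and 52 barcodes occurred in both libraries. The deposited table assigned 17 clusters and no names. By marker genes, clusters 1 to 9 and 11 were epithelial, and cluster 0 was CSC-like (corneal stromal cells, with *Kera*). Cluster 10, led by *Penk* and *Myoc*, had mean marker scores of 2.14 for corneal endothelial, 2.09 for Schwann and 2.06 for stromal markers. It stays unnamed, and is grouped with cluster 0 as stromal only for counting. Cluster 7, led by *Lce3a* and *Krt23*, scored below 0 for general epithelial markers but highest for superficial ones. Cluster 13 of W carried the neutrophil markers *S100a8* at 13612 CPM, *S100a9* at 19963, *Csf3r* at 409, *Cxcr2* at 119, *Mmp8* at 43.0 and *Ly6g* at 15.3. None of these was among its 10 leading genes, and its cells had a median of only 2509.5 UMIs. The naming rule therefore left it unnamed, and it is counted with the immune clusters by these markers. Clusters 14 and 15 were monocyte-like and cluster 16 T-like. Clusters 13 to 17 held 15 UW cells in all, and no comparison with UW was made there. A list of 10 genes induced by tissue dissociation, among them *Fos* and *Jun*, was higher in UW than in W in all 12 clusters compared, at 10149 against 7089 CPM in the summed epithelium and 10582 against 3543 CPM in cluster 0. Its part in the results was not tested.

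In the integrated stress response, kinases that sense amino acid shortage, misfolded protein in the endoplasmic reticulum, double-stranded RNA or lack of haem phosphorylate the translation factor eIF2α. General protein synthesis then falls, while mRNAs with upstream reading frames, *Atf4* above all, are translated better. ATF4 protein joins C/EBP factors on DNA and drives genes for amino acid supply, redox balance and, through *Ddit3*, cell death. Because ATF4 is set largely by translation, the level of its mRNA is no measure of its activity, and the mRNAs of its targets lie closer to it.

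ATF4 dimers are known to bind a C/EBP-ATF response element, searched here as TGATGNAA on both strands of RefSeq promoter windows (GRCm38.p6, 250 bases before to 50 after the transcription start). All 8 members matched a window, and *Atf5* matched 2. The element was found in 3.97% of all 32851 windows. Among the members it stood before the start in *Slc7a11*, *Chac1* and *Asns*, and after it in *Trib3*. An antioxidant response element, bound by NRF2 and written TGACNNNGC, was found in 12.4% of windows and in those of *Sesn2* and *Asns*. The core of the cyclic AMP element, TGACGT, in 7.51% of windows, was found in no member. The windows of *Atf4*, *Atf5* and *Ddit3* held none of these letters. The stretches below show the matches in capitals within the strand of the gene. They are shown for the 4 genes with a match before the start, the antioxidant match of *Asns*, 172 bases before the start on the opposite strand, is not shown, and a match is a description and not a shown binding site.

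*Slc7a11*, chr3:50443633-50443699, minus strand, 86 to 20 bases before the start, with 1 match on each strand: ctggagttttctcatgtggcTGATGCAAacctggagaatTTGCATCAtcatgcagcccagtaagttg

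*Chac1*, chr2:119351029-119351076, plus strand, 213 to 166 bases before the start, match on the opposite strand: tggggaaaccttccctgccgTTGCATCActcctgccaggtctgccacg

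*Asns*, chr6:7693215-7693242, minus strand, 33 to 6 bases before the RefSeq start and inside the gene by the GENCODE annotation: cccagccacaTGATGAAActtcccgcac

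*Sesn2*, chr4:132510474-132510502, minus strand, 46 to 18 bases before the RefSeq start and inside the gene by GENCODE, with the antioxidant element in capitals: cgcagcgggcTGACAGAGCcgggcgagcg

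In GENCODE M21 on GRCm38, *Atf4* spans chr15:80255184-80257541 on the plus strand, *Atf5* chr7:44812256-44816658 on the minus strand, and *Trib3* chr2:152337422-152344032 on the minus strand. *Ddit3* is listed under 2 overlapping gene identifiers, the longer at chr10:127290774-127296288 on the plus strand, while the count table has 1 column for it. Exons of *Atf5* overlap those of *Il4i1* and *Nup62*, and exons of *Ddit3* those of *Mars*, on the opposite strand. The sources used here name Cell Ranger and 3' libraries but do not state how strand was handled. Whether these counts hold reads of the partner genes was not tested. *Il4i1* was itself among the 10 leading genes of cluster 7, where *Atf5* had 3.33 CPM in UW, its lowest level in the 12 clusters there, and 13.9 in W.

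The members did not share one pattern over the cornea. *Chac1* was concentrated in superficial-like epithelium, *Trib3* and *Atf5* in clusters 0 and 10, and *Slc7a11* in cluster 13 of W. *Sesn2* was highest per UMI in basal-like and cycling epithelium of UW and in suprabasal-like cluster 4 of W. *Atf4* was found everywhere. Over the 28 groups of cluster and library with at least 50 cells, the 28 pairs of members had a median Pearson r of 0.28 on log2(CPM + 1), and 8 pairs were below 0. The highest values were 0.87 for *Ddit3* with *Slc7a11* and 0.83 for *Atf5* with *Trib3*, and the lowest was -0.79 for *Atf4* with *Chac1*. These groups share 2 libraries and differ in depth, so the values only describe the pattern.

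**Figure D1:**
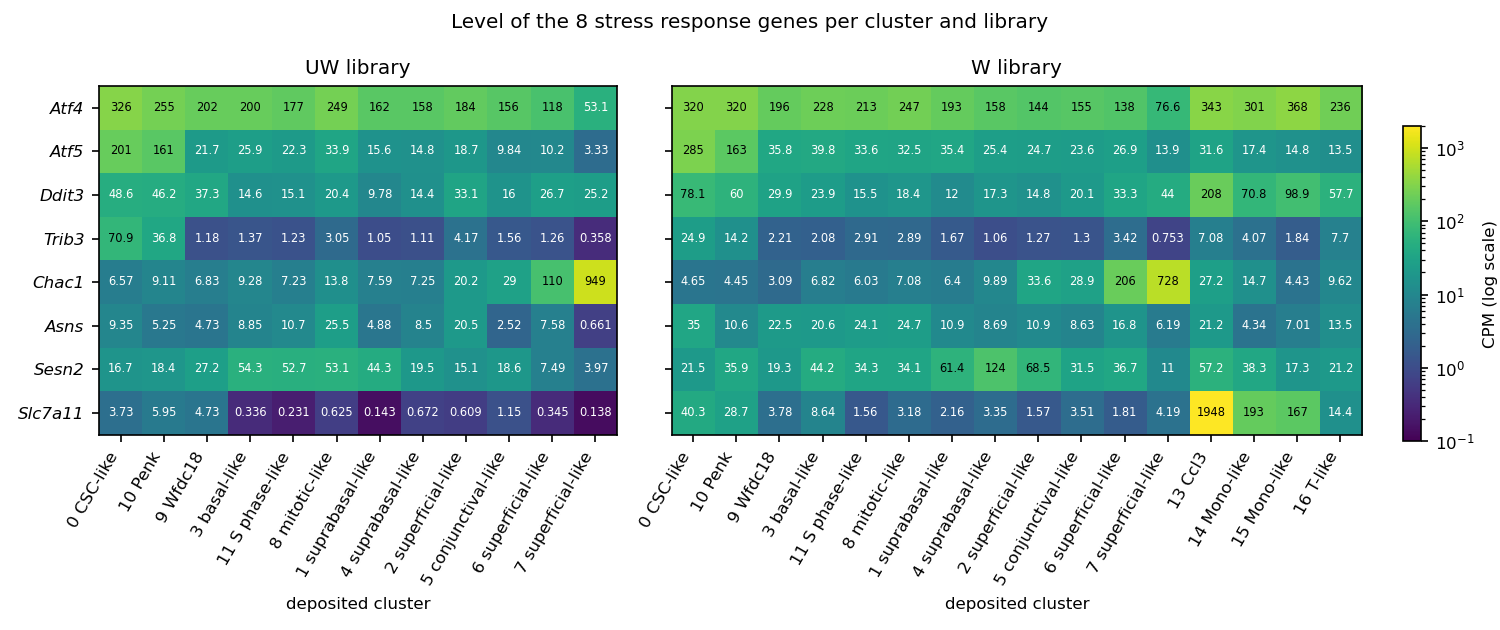
Level of each member (rows) in each deposited cluster with at least 50 cells (columns), in UW (left) and W (right), as CPM printed in the cell and on a log colour scale. *Chac1* is brightest in cluster 7 of both libraries (949 and 728 CPM) and *Slc7a11* in cluster 13 of W (1948 CPM), while *Atf4* lies between 53.1 and 368 CPM throughout.

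Among the transcription factors, *Atf4* was lowest in superficial-like clusters 6 and 7 of both libraries. In UW it fell from 326 CPM (319.6 to 333) in cluster 0 to 53.1 (50.8 to 55.5) in cluster 7, the last of 12 clusters. In between, the 10 other clusters had levels from 118 to 255 CPM, and the intervals of clusters 10 and 8, of 9 and 3, of 2 and 11, and of 1, 4 and 5 in that order overlapped from each to the next. In W the highest levels, 301 to 368 CPM, belonged to clusters 15, 13, 10, 0 and 14, whose intervals overlapped from each to the next, and cluster 7 was again last at 76.6 (71.7 to 81.7). The *Atf4* mRNA was called neither higher nor lower in any of the 12 clusters present in both libraries. Its log2 ratio ran from -0.36 (-0.41 to -0.30) in superficial-like cluster 2 to 0.53 (0.41 to 0.64) in cluster 7, and was -0.03 (-0.07 to 0.01) in cluster 0.

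*Atf5*, which encodes a related bZIP factor that is also under translational control, was mainly a transcript of clusters 0 and 10. It stood at 201 CPM (196 to 206) in cluster 0 and 161 (151 to 172) in cluster 10 of UW, against 3.33 to 33.9 CPM in the 10 epithelial clusters. In W, cluster 0 had 285 CPM (279 to 291) and cluster 10 had 163 (154 to 172), and the epithelial clusters lay between 13.9 and 39.8. The 3 epithelial clusters with the lowest UW levels, 7, 5 and 6, had the largest ratios. The call was higher in W in clusters 1, 5 and 6, with log2 ratios of 1.18 (1.02 to 1.34), 1.26 (1.06 to 1.47) and 1.39 (1.19 to 1.59). In cluster 7 the level was 3.33 CPM in UW and 13.9 in W, under the limit for a comparison. The mitotic-like cluster 8 was alone among the 10 epithelial clusters in having a ratio below 0, -0.06 (-0.21 to 0.10).

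*Ddit3* encodes CHOP, the factor through which a long-lasting response can turn towards cell death. In UW it was highest in clusters 0 and 10, at 48.6 CPM (46.1 to 51.2) and 46.2 (40.8 to 52.2), whose intervals overlapped, and lowest in suprabasal-like cluster 1, at 9.78 (8.98 to 10.6). The interval of cluster 10 also overlapped that of cluster 9, at 37.3 CPM (33.1 to 41.9). In W the order was led by cluster 13 with 208 CPM (188 to 230), followed by cluster 15 with 98.9 (87.4 to 111) and cluster 0 with 78.1 (75.1 to 81.2). The interval of cluster 0 overlapped that of cluster 14, at 70.8 CPM (62.5 to 80.0). The direction differed between epithelial clusters. *Ddit3* was lower in W in cluster 2, at 14.8 CPM (13.2 to 16.4) against 33.1 (31.7 to 34.6) in UW, a log2 ratio of -1.16 (-1.34 to -0.998). In cluster 7 it was at 44.0 CPM (40.3 to 48.0) in W and 25.2 (23.6 to 26.9) in UW, a ratio of 0.80 (0.65 to 0.96) that did not reach the limit for a call. The counts were unevenly spread in cluster 7, where the 10% of cells with the most *Ddit3* held 76.1% of it in UW and 72.2% in W.

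*Trib3* encodes a pseudokinase that is induced by ATF4 and CHOP and holds them back. Cluster 0 held 71.9% of all *Trib3* UMIs of the UW library with 14.4% of its cells. The level there was 70.9 CPM (67.8 to 74.0) in UW against 24.9 (23.2 to 26.7) in W, a log2 ratio of -1.51 (-1.63 to -1.39). Cluster 10 went the same way, from 36.8 CPM (32.0 to 42.1) to 14.2 (11.7 to 16.99), a ratio of -1.37 (-1.71 to -1.04). *Trib3* was the one member called lower in clusters 0 and 10, and it was called so in both. After each cell was thinned to 5000 UMIs, the share of cluster 0 cells with a *Trib3* UMI was 26.7% (24.9 to 28.5) in UW against 10.2% (8.85 to 11.8) in W, compared with 0.134% (0.0162 to 0.483) in superficial-like cluster 7 of UW. Before thinning the cluster 0 shares were 48.7% and 32.2%, at median depths of 11853 and 17588 UMIs. In the 10 epithelial clusters *Trib3* ran from 0.358 to 4.17 CPM in UW, against 0.753 to 3.42 in W, too low to be compared in any of them.

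*Chac1* encodes an enzyme that cleaves glutathione and is among the most inducible ATF4 targets. In this cornea it was a transcript of the uppermost epithelium in both libraries. Cluster 7 held 949 CPM (939 to 959) in UW against 728 (712 to 743) in W, and cluster 6, superficial-like with *Upk3b* and *Psca*, held 110 (107 to 113) and 206 (199 to 213). The other 8 epithelial clusters ranged from 6.83 to 28.99 CPM in UW, against 3.09 to 33.6 in W, and the stromal clusters from 4.45 to 9.11. Cluster 7 therefore held 80.4% of the *Chac1* UMIs of UW with 9.19% of its cells, and 58.3% of those of W with 4.25% of its cells. At 5000 UMIs per cell, 89.2% (87.5 to 90.7) of cluster 7 cells in UW and 89.9% (86.9 to 92.3) in W had a *Chac1* UMI, compared with 3.45% (2.75 to 4.28) and 1.58% (1.04 to 2.29) in cluster 0. The cells of cluster 7 carried a median of 18 *Chac1* UMIs in UW and 13 in W, with up to 204 in a single cell. The shares before thinning were 96.9% and 96.6% in cluster 7, with median depths of 23636 and 21232.5 UMIs.

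The ratio of *Chac1* had different signs in different clusters. It was 0.90 (0.84 to 0.97) in cluster 6 and 0.73 (0.60 to 0.87) in cluster 2, and -0.38 (-0.42 to -0.35) in cluster 7 and -0.96 (-1.22 to -0.69) in mitotic-like cluster 8, none of them far enough for a call. RNA set free from epithelial cells can add to low levels elsewhere. Judged from *Krt12*, a keratin of the corneal epithelium, such RNA would make up 3.63 of the 4.65 CPM in cluster 0 of W and 4.30 of the 4.45 CPM in cluster 10. This reading takes the free RNA to have the mix of the summed epithelium. In cluster 14 of W it gave 29.9 CPM of *Chac1* where 14.7 were found, so these amounts can be too high. Epithelial clusters such as 8 make *Krt12* themselves, so that the free share of the 13.8 CPM of cluster 8 in UW and 7.08 in W could not be read, and its part in the negative ratio was not tested. At 5000 UMIs the share of cluster 6 cells with a *Chac1* UMI was 31.1% (28.8 to 33.5) in UW against 54.9% (50.9 to 58.8) in W. With the 10 epithelial clusters summed, *Chac1* was at 128 CPM in UW and 61.0 in W, a log2 ratio of -1.07 (-1.10 to -1.04) that was called lower. Cluster 7 made up 10.9% of the epithelial UMIs in UW and 4.998% in W. Without cluster 7 the sums were 27.5 and 25.9 CPM with a ratio of -0.09, and the mean of the 10 cluster ratios with equal weight was -0.14. The call on the summed epithelium was lost in both of these.

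**Figure D2:**
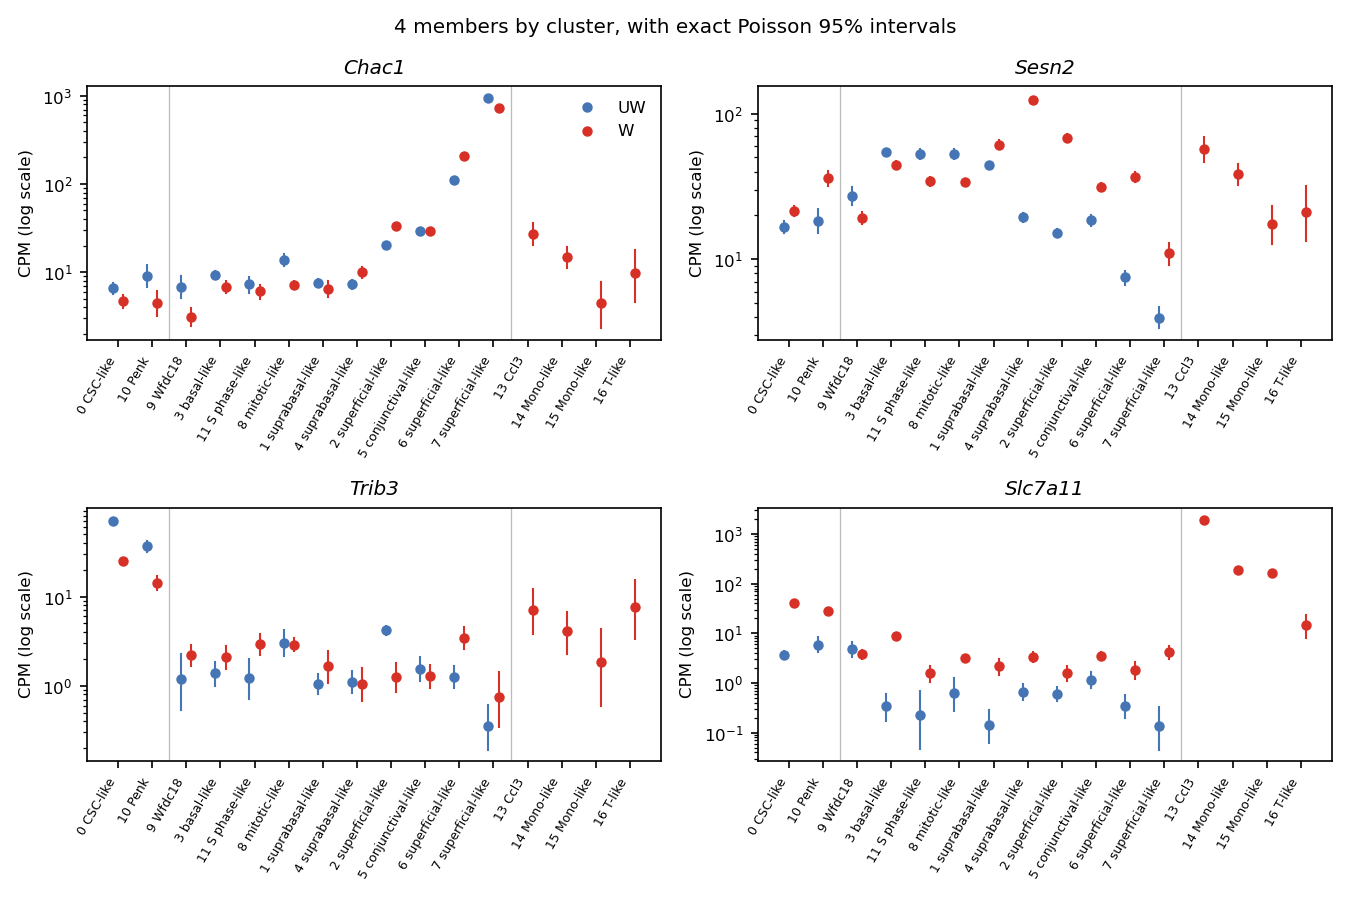
CPM (log axes) of *Chac1*, *Sesn2*, *Trib3* and *Slc7a11* in UW (blue) and W (red) for each cluster with at least 50 cells, with stromal clusters at the left, epithelial clusters in the middle and immune clusters of W at the right. Bars are exact Poisson 95% intervals. *Chac1* peaks in cluster 7, *Sesn2* of W in cluster 4 (124 CPM), *Trib3* in cluster 0 and *Slc7a11* in cluster 13.

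*Asns* encodes asparagine synthetase, which makes asparagine from aspartate and is induced when amino acids run short. In UW it was highest in mitotic-like cluster 8 with 25.5 CPM (22.8 to 28.4) and cluster 2 with 20.5 (19.3 to 21.6), and at 10.7 CPM or less elsewhere. In W it was highest in cluster 0 with 35.0 CPM (33.0 to 37.1), where it had been at 9.35 (8.26 to 10.5), a log2 ratio of 1.91 (1.71 to 2.10). It was also called higher in epithelial clusters 9, 3, 11 and 6. In cluster 9, led by *Wfdc18* and *Dlk2*, it was at 4.73 CPM (3.31 to 6.54) in UW against 22.5 (20.7 to 24.4) in W, a ratio of 2.25 (1.76 to 2.78). In basal-like cluster 3 the levels were 8.85 CPM (7.86 to 9.93) and 20.6 (18.7 to 22.5), a ratio of 1.22 (1.00 to 1.43). The ratio of cluster 6 was 1.15 (0.90 to 1.39) but 0.99 with TMM factors, and that of S phase-like cluster 11 was 1.17 (0.90 to 1.46) but 0.44 with cells thinned to 5000 UMIs. Cluster 8 kept its level at 24.7 CPM (23.3 to 26.2), with a ratio of -0.04 (-0.22 to 0.14), and cluster 2 went the other way to 10.9 CPM, with a ratio of -0.91 (-1.11 to -0.71). In W the levels of clusters 8, 11, 9, 13 and 3 lay between 20.6 and 24.7 CPM, each overlapping the next.

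*Sesn2* encodes sestrin 2, which senses leucine and restrains mTORC1, and whose gene also answers to p53 and NRF2. In UW it was highest in basal-like and cycling clusters, with 54.3 CPM (51.8 to 56.9) in basal-like cluster 3, 53.1 (49.1 to 57.2) in cluster 8 and 52.7 (48.8 to 56.8) in cluster 11, 3 values with overlapping intervals. It was lowest in clusters 6 and 7, at 7.49 and 3.97 CPM. In W the order was headed by suprabasal-like cluster 4 with 124 CPM (120 to 129), which had held 19.5 (18.2 to 20.8) in UW, a log2 ratio of 2.68 (2.57 to 2.79). Cluster 2 moved from 15.1 CPM (14.2 to 16.1) to 68.5 (65.2 to 72.0), a ratio of 2.18 (2.06 to 2.30), and cluster 6 from 7.49 (6.70 to 8.35) to 36.7 (33.7 to 39.9), a ratio of 2.29 (2.09 to 2.497). All 3 were called higher. The other suprabasal-like cluster, 1, had 44.3 CPM (42.5 to 46.0) in UW, with 27.2% of the *Sesn2* UMIs of that library, against 61.4 (57.4 to 65.5) in W, and its ratio of 0.47 (0.36 to 0.58) was no call. Superficial-like cluster 7 had 3.97 CPM in UW against 10.97 in W, below the level for a comparison. Clusters 3, 9, 11 and 8 had ratios below 0 with intervals that did not reach 0, at -0.30 in cluster 3, -0.50 in cluster 9, -0.62 in cluster 11 and -0.64 in cluster 8. Cluster 10 had 18.4 CPM (15.04 to 22.3) in UW against 35.9 (32.0 to 40.3) in W, and its ratio of 0.97 (0.64 to 1.30) was no call but reached 1.08 with TMM factors and 1.10 with thinned cells. Cluster 0 had 16.7 CPM (15.2 to 18.2) against 21.5 (19.9 to 23.2), with a ratio of 0.37 (0.20 to 0.54). At 5000 UMIs per cell, 8.83% (7.44 to 10.4) of cluster 4 cells had a *Sesn2* UMI in UW and 43.9% (40.6 to 47.2) in W. The same shares were 20.6% (17.2 to 24.4) and 14.9% (12.97 to 16.9) in cluster 8. Before thinning they were 34.9% and 78.1% in cluster 4, with median depths of 26359 and 20584.5 UMIs.

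*Slc7a11* encodes xCT, the light chain of the antiporter that imports cystine for glutathione synthesis in exchange for glutamate. The UW library held 329 *Slc7a11* UMIs in all and the W library 7267, of which cluster 13 held 49.2% with 5.72% of the cells. Its level in cluster 13 was 1948 CPM (1884 to 2013), followed by cluster 14 with 193 (179.5 to 208) and cluster 15 with 167 (152 to 183), which overlapped before any allowance for free RNA. In stromal cluster 0 it was at 3.73 CPM (3.05 to 4.51) in UW against 40.3 (38.1 to 42.5) in W, a log2 ratio of 3.43 (3.15 to 3.73). In cluster 10 the levels were 5.95 CPM (4.12 to 8.32) and 28.7 (25.2 to 32.6), a ratio of 2.27 (1.75 to 2.83). Both were called higher. At 2000 UMIs per cell, 78.3% (74.7 to 81.5) of cluster 13 cells had a *Slc7a11* UMI, 5.36% (4.34 to 6.53) of W cluster 0 cells against 0.891% (0.552 to 1.36) in UW, and 0.679% (0.185 to 1.73) of W cells in epithelial cluster 1. Without thinning the shares were 81.4% in cluster 13 and 22.3% in cluster 0 of W, at median depths of 2509.5 and 17588 UMIs. The stromal counts came from few cells, since the 10% of cells with the most held 82.4% of them in cluster 0 of W.

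In the 10 epithelial clusters *Slc7a11* stayed below 10 CPM and was not compared. It ran from 0.138 to 4.73 CPM in UW, against 1.56 to 8.64 in W, with the W interval above the UW interval in all but cluster 9. RNA set free from cells of cluster 13 can enter the droplets of other cells, and its amount was read from *Csf3r*, *Cxcr2*, *Ly6g* and *Mmp8*, 4 neutrophil markers which together stood at 586 CPM in cluster 13. Their level was 0.0514% to 0.264% of that in the W epithelial clusters, which would carry 1.00 to 5.15 CPM of *Slc7a11* with it. It was read from only 6 to 39 marker counts per cluster. The *Slc7a11* level left after this was between -1.53 and 3.49 CPM in these clusters. In cluster 0 the same reading gave 1.23 of the 40.3 CPM and in cluster 10 4.79 of the 28.7 CPM, leaving log2 ratios of 3.39 and 2.01. Each of these rests on 12 marker counts, so the amounts taken off are rough, and no interval was computed for them. In clusters 14 and 15 *Csf3r* and *Mmp8* were found without *Ly6g* and with little *Cxcr2*, so the reading could not be used there.

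The other members in immune clusters were read beside the epithelial RNA in the same droplets, judged from *Krt12*. In cluster 13 *Krt12* stood at 29.01% of its level in the W epithelium, and 54.0 of the 343 CPM of *Atf4*, 6.24 of the 208 CPM of *Ddit3*, 13.2 of the 57.2 CPM of *Sesn2* and 17.7 of the 27.2 CPM of *Chac1* would come with it. In cluster 14, where *Krt12* stood at 49.0%, the amounts that would come with it were 29.9 CPM for *Chac1* and 8.08 CPM for *Asns*, more than the 14.7 and 4.34 CPM found. Amounts read in this way can therefore be too high, also in cluster 13. *Slc7a11* was hardly touched by this reading, with 0.998 of 1948 CPM in cluster 13. *Atf4* in cluster 15 was at 368 CPM (346 to 392), of which 18.8 would be epithelial.

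Counted over the 10 epithelial clusters, 49 of the 80 pairs of member and cluster had the level for a comparison, and 31 did not, among them all those of *Trib3* and *Slc7a11*. Of the 49, 10 (20.4%) were called higher in W and 1 (2.04%) lower. The shares over all genes were 7.18% and 8.53%. The 10 calls came from *Asns* (4), *Atf5* (3) and *Sesn2* (3), so pairs of the same gene are not separate observations. In cluster 0, 2 of 7 members compared were called higher and 1 lower, where 3.73% of all genes were called higher and 4.38% lower. In cluster 10 it was 1 of 6 in each direction, where 3.16% of all genes were called higher and 2.64% lower. In the summed epithelium 0 of 6 members were called higher and *Chac1* alone lower, where 10.9% of all genes were called higher and 7.44% lower. *Slc7a11*, with a ratio of 2.65 (2.41 to 2.88) in that sum, was below the level for a comparison. The ratios of *Atf5*, *Asns* and *Sesn2* there were 0.92, 0.83 and 0.83, and those of *Atf4* and *Ddit3* 0.26 and 0.05. The median of the 6 members was 0.54, and of all genes compared 0.03. Scaling by TMM factors lowered every ratio in this sum by 0.22, which turned *Ddit3* to -0.17, and lowered every ratio in cluster 7 by 0.38.

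**Figure D3:**
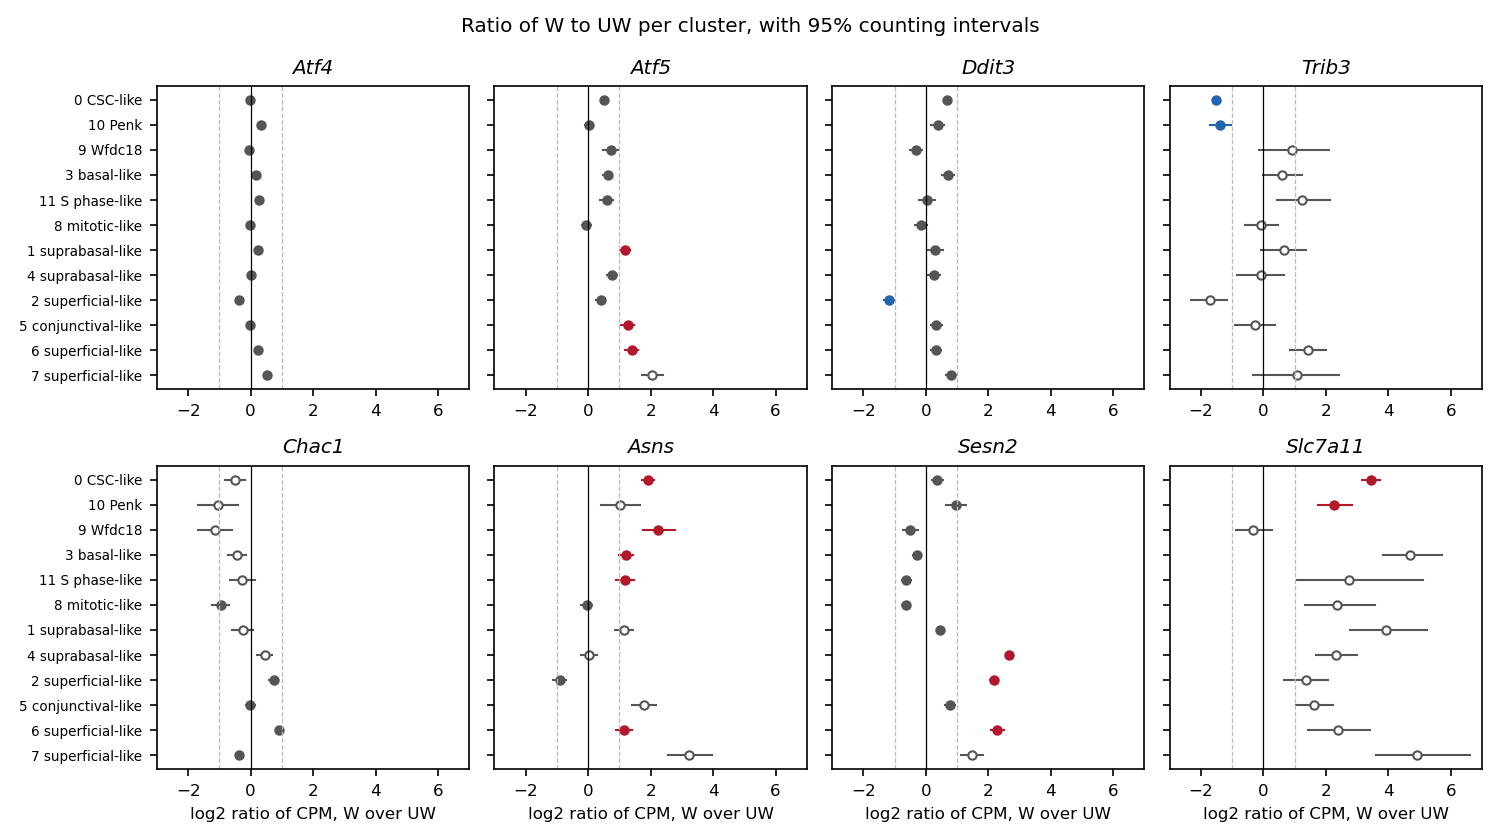
Log2 ratio of CPM in W over UW for each member in the 12 clusters present in both libraries, with exact binomial 95% intervals. Filled points had the level for a comparison and open points did not. Red points were called higher and blue points lower, and dashed lines mark the limit of a call. *Sesn2* lies right of 0 in clusters 0, 1, 2, 4 to 7 and 10 and left of 0 in clusters 3, 8, 9 and 11, and *Trib3* is blue in clusters 0 and 10.

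In the epithelium the members were seldom caught together in a cell, and genes of like level were not set beside them. At 5000 UMIs per cell, a mean of 1.01 of the 8 members was detected per epithelial cell in UW and 1.22 in W. The share of epithelial cells with 3 or more was 4.37% (4.03 to 4.73) in UW against 7.68% (7.12 to 8.27) in W. It was largest in the stroma, at 27.4% (25.5 to 29.2) and 36.3% (34.0 to 38.6) in cluster 0, where *Atf4* was detected in 77.2% and *Atf5* in 53.4% of UW cells at this depth. Cluster 6 had 4.2% (3.24 to 5.34) in UW against 15.4% (12.6 to 18.4) in W. In mitotic-like cluster 8 the intervals overlapped, at 8.63% (6.34 to 11.4) and 6.47% (5.20 to 7.94).

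The pathway around the members was described by 6 further lists with 59 genes of the response in the table. In the summed epithelium 42 had the level for a comparison, 5 were called higher and 1 lower, with a median log2 ratio of 0.23. Over all genes 10.9% were called higher and 7.44% lower there, so the share called higher in the lists was close to the background. The makeup of this sum differed between libraries. Cluster 8 gave 3.84% of its UMIs in UW and 20.4% in W, and cluster 1 gave 16.9% and 6.01%. The part of this makeup in the ratios of the lists in the summed epithelium was not tested. Of the 5, 3 were enzymes of serine and glycine synthesis. *Phgdh*, the first enzyme of the serine pathway, had 35.3 CPM in UW against 130.2 in W (ratio 1.88), *Psph*, its last step, at 7.84 and 26.3 (1.74), and *Shmt2*, which makes glycine from serine in mitochondria, at 5.32 and 20.2 (1.92). That list of 10 amino acid synthesis genes had 6 compared, 3 called and a median of 1.30 over those 6, with *Psat1* at 31.2 and 56.7 CPM (0.86) and the folate enzyme *Mthfd2* at 15.7 and 13.97 (-0.16). *Psph* and *Shmt2* were below 10 CPM in UW and reached the level for a comparison through W alone, so the median takes in genes admitted by their W level. The other calls were *Nupr1*, a stress-induced chromatin protein, at 30.8 and 93.6 CPM (1.60), *Ddit4*, an inhibitor of mTORC1, at 5.99 and 23.4 (1.97), and *Jdp2*, a repressor of the AP-1 family, lower at 223 and 86.8 (-1.36). *Ddit4* also reached the level through W alone.

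The other 5 lists of the response had medians from -0.12 to 0.39 in the summed epithelium. Of the 7 genes for eIF2 kinases, phosphatase subunits and eIF2α itself, 6 were compared and none called, with a median of -0.12, and *Ppp1r15a*, the inducible phosphatase subunit, at 384 against 333 CPM. The 8 partners and related factors of ATF4, *Nupr1* and *Jdp2* among them, had a median of -0.07, with *Atf3* at 1154 and 1218 CPM and *Cebpb* at 457 and 387. Of 8 amino acid transporters 3 were compared and none called, with a median of 0.39 and *Slc38a2* at 253 and 358 CPM. All 13 tRNA synthetase genes (with the tRNA exporter *Xpot*) were compared and none called, with 10 ratios above 0 and a median of 0.19. *Eprs* stood at 99.2 and 97.0 CPM, *Nars* at 68.8 and 72.1 and *Sars* at 43.0 and 71.3. The 13 other ATF4 and CHOP targets had 6 compared and a median of 0.16, with *Trib1* at 181 and 273 CPM and *Mknk2* at 148 and 112.

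In clusters 0 and 10 other genes of the same lists were called. In cluster 0, 46 of the 59 were compared, 4 were called higher and 1 lower, with a median of 0.12 where the median of all genes was -0.12 and 3.73% of them were called higher and 4.38% lower. The genes called higher were *Cebpd*, a C/EBP factor, at 91.4 CPM in UW against 260.4 in W (1.51), *Slc38a2*, a transporter of small neutral amino acids, at 321 and 687 (1.10), *Stc2*, a secreted glycoprotein, at 13.9 and 44.6 (1.68), and *Gadd45a*, a growth arrest gene, at 28.4 and 62.7 (1.14). The gene called lower was *Psat1*, at 163 and 78.6 CPM (-1.05), while its ratio in the epithelium was above 0. Scaling by TMM factors raises every ratio in cluster 0 by 0.145, with which the *Psat1* call is lost. The amino acid synthesis list had a median of 0.47 in cluster 0, and the synthetases 0.31. In cluster 10, 46 were compared and 4 called higher with a median of 0.25 against -0.05 for all genes, of which 3.16% were called higher and 2.64% lower. They were *Cebpb* at 589 and 1432 CPM (1.28), *Cebpd* at 246 and 794 (1.69), *Gadd45a* at 30.1 and 68.8 (1.19) and *Trib1* at 30.1 and 65.3 (1.12).

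Neighbouring pathways that share members were listed for comparison. Over all genes, 10.9% were called higher and 7.44% lower in the summed epithelium, 3.73% and 4.38% in cluster 0, and 3.16% and 2.64% in cluster 10. Of the 16 genes of the ATF6 and XBP1 branch of the unfolded protein response, which raises chaperones of the endoplasmic reticulum, 1 was called higher in each of the summed epithelium, cluster 0 and cluster 10, with medians of 0.32, 0.35 and 0.43. It was *Sdf2l1* each time, at 10.4 and 35.8 CPM in the epithelium, and *Sel1l* was called lower there, at 36.5 and 16.8. The main chaperone *Hspa5* stood at 628 and 510 CPM in epithelium, where *Calr* was at 320.5 and 538, and 1003 and 1124 in cluster 0. Of 9 NRF2 targets beside *Slc7a11*, *Gclm*, a subunit of the enzyme that starts glutathione synthesis, was called higher in epithelium at 38.5 and 78.1 CPM (1.02), and *Txnrd1*, thioredoxin reductase, had 77.2 and 45.7 (-0.76). Scaling by TMM factors lowers every ratio in the summed epithelium by 0.22, with which the *Gclm* call is lost. The call outside the epithelium was *Hmox1*, haem oxygenase, at 20.3 and 256 CPM in cluster 0 (3.66) and at 42.2 and 301 in cluster 10 (2.83), and the list's medians were 0.21, 0.38 and 0.34. Of 7 p53 targets beside *Sesn2*, the cell cycle inhibitor *Cdkn1a* was called lower in the summed epithelium at 697 and 264 CPM (-1.40) and *Phlda3* higher at 74.5 and 174 (1.22). The *Phlda3* call is lost with median-of-ratios factors, which lower every ratio there by 0.23. None was called in clusters 0 and 10, and the medians of the p53 list were 0.15, -0.12 and -0.13. The 10 dissociation genes had medians of -0.83, -0.96 and -0.41. In the epithelium *Fos*, *Egr1* and *Dnajb1* were called lower and *Hsph1* higher, and in cluster 0 *Fos*, *Fosb*, *Jun*, *Egr1* and *Ier2* lower.

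**Figure D4:**
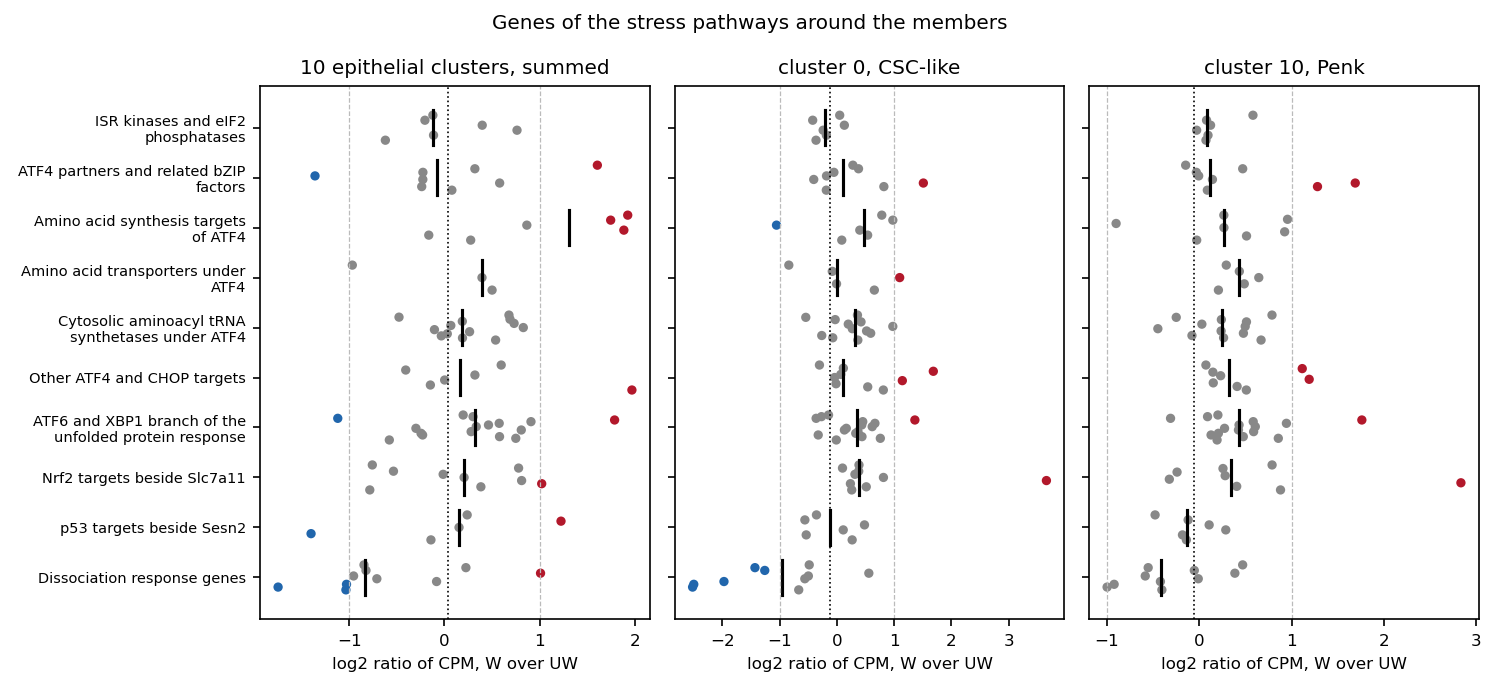
Log2 ratio of CPM in W over UW of the genes of 10 lists (points, 1 gene each) in the summed epithelium, cluster 0 and cluster 10, for genes with the level for a comparison. Red points were called higher and blue points lower, short black bars are the median of a list, the dotted line is the median of all genes compared (0.03, -0.12 and -0.05), and dashed lines mark the limit of a call. The amino acid synthesis list lies farthest to the right in the epithelium (median 1.30 over the 6 of its 10 genes compared) and the dissociation list to the left in all 3. Of those 6, *Psph* and *Shmt2* reached the level for a comparison through W alone.

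The genes with the most similar pattern to each member were taken by Pearson r of log2(CPM + 1) over the same 28 groups, among 7769 genes with a mean of at least 10 CPM. For *Chac1* these were *Alpl* (0.97), *Plekhs1* (0.96) and *Prss22* (0.95), of which *Alpl* and *Plekhs1* were among the 10 leading genes of cluster 7. For *Slc7a11* they were *Mmp9* (0.95), a gelatinase of myeloid cells, *Mpeg1* (0.93) and *Antxr2* (0.93). *Trib3* was most like *Dkk2*, *Gnb4* and *A2m* (all 0.94) and *Atf5* most like *Sema3c*, *Fzd2* (both 0.93) and *Upp2* (0.92). *Asns* was most like *Mars*, the methionyl tRNA synthetase gene (0.82), *Ankrd54* and *Psph* (both 0.72), and *Mars* and *Psph* are on the lists of ATF4 targets above. *Sesn2* was most like *Rap2b* (0.84), *Polr2f* and *Pcbd2* (both 0.81), *Ddit3* like *Neu1* (0.90), *Lsp1* and *Cnppd1* (both 0.88), and *Atf4* like *Usf2* (0.96), *Wdr70* and *Cep83* (both 0.95).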

How the data were processed

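Single-cell 3' RNA-seq of dissociated mouse cornea was analysed from the processed tables. The authors aligned reads with Cell Ranger 3.1.0, to mm10 by their methods while the processing notes name mm9, and deposited UMI counts per gene and cell without normalization. Their stated filters kept genes found in at least 5 cells, and cells with 500 to 8000 genes and no more than 10% mitochondrial UMIs. By their account DoubletFinder doublets and cells with a dissociation signature were removed. The deposited table of cells, made in Seurat, gives cluster numbers, which were used as they stand. It still names 305 UW and 164 W cells as doublets in a column, and leaving these out was an alternative. Libraries were told apart by the start of the barcode.

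The members and gene lists were chosen with earlier results of these data known. Counts were summed per cluster and library in Python 3.11.15 (numpy 2.4.6, scipy 1.17.1, pandas 2.3.3). The sums compared hold 5710692 to 60708276 UMIs per cluster. A sum of 0 would allow up to 3 counts. Shares of cells were also computed after thinning each cell to 5000 UMIs (2000 with immune clusters), shallower cells left out, from 1 random draw. A cluster took its name from the best scoring list of marker genes, unless its leading genes or its depth went against that name.

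Named genes are all members, from each list the genes called and up to 4 of the best expressed, and the 3 genes most like each member, mitochondrial and ribosomal protein genes left out. Alternatives were TMM factors (edgeR 4.0.16), median-of-ratios factors (DESeq2 1.42.0), stricter cell filters, equal weight per cell or per cluster, thinning, and other limits on level and fold. Readings of free RNA from neutrophil markers and sums without clusters 5, 7 or 9 were chosen after seeing the data. The computations were tested on simulated data.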

Additional observations from a re-analysis of the deposited data

Results flagged for a closer look

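For 5 members, the interval of the log2 ratio lay above 0 in 1 cluster and below 0 in another, among clusters with the level for a comparison. None of these differences between clusters was tested, since each condition is 1 library. *Sesn2* had the widest, with a ratio in suprabasal-like cluster 4 that exceeded that in mitotic-like cluster 8 by 3.32 on the log2 scale. For *Asns* the ratio in cluster 9 exceeded that in cluster 2 by 3.16. The ratio of *Ddit3* in cluster 7 exceeded that in cluster 2 by 1.97, and the ratio of *Atf4* between the same clusters differed by 0.885. Scaling by TMM factors lowers every ratio in cluster 7 by 0.38 and raises those in cluster 2 by 0.028, which narrows both differences. For *Chac1* the ratio in cluster 6 exceeded that in cluster 8 by 1.86. The *Chac1* level in cluster 8 was low, at 13.8 CPM in UW against 7.08 in W, and the share of free RNA in it could not be read. The dissociation list had 7876 CPM in UW against 6622 in W for cluster 7, 13001 and 9370 for cluster 2, 11804 and 10080.4 for cluster 4, 10931 and 8135 for cluster 6, 9569 and 5737 for cluster 8, and 11297 and 6200 for cluster 9. Its part in these differences was not tested.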

How the results depend on the processing

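No paired analysis was possible because there is 1 library per condition. In the 10 epithelial clusters, 10 pairs of member and cluster were called higher in W and 1 lower. With no limit other than 20 counts these became 27 and 3 (all genes 14.1% and 10.1%), with a limit of 50 CPM 1 and 0 (7.42% and 8.32%), with a fold limit of 0.5 on the log2 scale 20 and 5 (19.7% and 26.5%), and with equal weight per cell 2 were lower (9.15%). In clusters 0 and 10, 3 higher and 2 lower became 0 and 0 with a limit of 50 CPM (all genes 3.92% and 3.22%), and 6 were higher with a fold limit of 0.5 (11.1%). Equal weight per cluster also takes in clusters below the level for a comparison, such as cluster 7 for *Asns* (3.23, from 24 counts in UW and 74 in W). In the summed epithelium, 0 higher and 1 lower became 0 lower with equal weight per cell (all genes 6.94%) and with thinned cells (6.86%), 1 higher and 0 lower with equal weight per cluster (*Asns*, 1.10, all genes 7.12% and 5.09%), 1 higher (*Slc7a11*) with no limit other than 20 counts (21.8%), and 3 higher with a fold limit of 0.5 (26.2%). Of 42 wider response genes compared in that sum, 5 higher and 1 lower became 12 and 3 of 59 with no limit other than 20 counts (all genes 21.8% and 8.77%), 2 and 1 of 19 with a limit of 50 CPM (9.09% and 9.05%), and 14 and 3 of 42 with a fold limit of 0.5 (26.2% and 22.2%). Among these genes 2 were lower with TMM factors (all genes 12.7%), median-of-ratios factors (13.1%), equal weight per cell and thinning. Of the 17 single ratios called, 0 changed sign, and 3 fell below the limit in an alternative (*Asns* in clusters 6 and 11, *Chac1* in the summed epithelium). Among all 104 single ratios 16 changed sign in at least 1 alternative. The share of cells with a UMI was higher in W, with intervals that did not overlap, in 57 of 96 pairs of member and cluster, and in 32 after thinning, and lower in 6 and 8. Over all genes with at least 20 counts in a cluster, 35.3% of pairs were higher and 20.2% lower, and 13.5% and 16.8% after thinning. The limit of 10 CPM kept *Trib3* and *Slc7a11* from a comparison in every epithelial cluster. Counts were also few in cluster 10, whose 5710692 UMIs in UW held 34 *Slc7a11* counts. With 1 library per condition, the library and the wound cannot be told apart, and cells were not split by animal here.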

Other observations

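Cluster 17 of W, with 29 cells that carried markers of several cell types, was left out of the comparisons. Its level was 268 CPM (226 to 316) for *Slc7a11*, 163 (131 to 201) for *Atf5* and 30.02 (17.2 to 48.7) for *Trib3*, from sums of 143, 87 and 16 counts. The 15 UW cells in the immune clusters held 35624 UMIs in all, of which 6 were *Atf4*, 6 *Slc7a11*, 2 *Ddit3*, 1 *Chac1*, 1 *Sesn2* and 0 *Atf5*, *Trib3* and *Asns*, where a sum of 0 allows up to 3 counts.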
